A study of Rattus norvegicus with 30 samples.

Results

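The enzymes that remove superoxide and peroxides were followed in lung RNA of newborn rats over the days after birth. The set holds 10 genes, taken by symbol from the deposited table of 35224 genes: the superoxide dismutases Sod1, Sod2 and Sod3, the catalase gene Cat, the glutathione peroxidases Gpx1, Gpx2, Gpx3 and Gpx4, and the peroxiredoxins Prdx1 and Prdx6. The pups were divided at random between an arm kept in 85% oxygen from within a day of birth, a rodent model of bronchopulmonary dysplasia, and an arm kept in room air with 21% oxygen, with daily exchange between the arms to even out nursing. Lung without trachea was sampled on postnatal days 1, 3, 7, 10 and 14, which gives 10 groups of 3 libraries. No strain, sex or genetic change is given in the labels, which state 12 rats per arm while each arm has 15 libraries, and whether 3 libraries of one group stand for 3 animals is not said. The p-values thus speak only for the spread among these samples, which may be technical.

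Superoxide, made when oxygen takes up a stray electron, is turned into hydrogen peroxide by the dismutases: Sod1 works in the cytosol with copper and zinc, Sod2 in the mitochondrial matrix with manganese, and Sod3 outside the cell. Hydrogen peroxide is then broken down by catalase in peroxisomes, by glutathione peroxidases, most of them selenoproteins that spend glutathione, and by peroxiredoxins, which are recharged mainly by thioredoxin and, for Prdx6, by glutathione. In lung these enzymes are known for their part in tolerance of high oxygen, and several are targets of NRF2, a transcription factor that binds antioxidant response elements.

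Library totals ran from 14951463 to 18074590 counts with a median of 16069831, and 17571 genes had enough counts to be tested, the 10 members among them. Lung markers were present throughout: all 6 type 2 cell and all 6 type 1 cell markers had counts in every library. Cdkn1a, Gdf15 and Nqo1, genes that high oxygen is known to raise in lung, went against the treatment labels, since all 3 were lower in the 85%-labelled libraries at day 14, Cdkn1a at 29.4 ± 4.37 against 430.1 ± 42.4 in counts scaled to library size (CPM, mean ± SD, n = 3). The arms are for that reason called 85%-labelled and 21%-labelled, and every direction below is that of the labels. Mitochondrially encoded genes took 2.65% to 19.1% of a library's counts, and at day 1 the share was 5.31% to 19.1% in the 85%-labelled against 2.71% to 3.03% in the 21%-labelled libraries. The rank correlation of level with gene length across genes was also lower in the 85%-labelled libraries of that day, at 0.225 to 0.287. Their 21%-labelled counterparts gave 0.344 to 0.363, and the other days 0.230 to 0.400. At day 14 the order was the reverse, at 0.382 to 0.400 in the 85%-labelled against 0.319 to 0.364 in the 21%-labelled libraries. The part of gene length in the members' differences was not tested.

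The promoters of Sod2, Gpx2 and Prdx1 are shown because these genes were among those called lower in the 85%-labelled lungs at day 14 and are the members whose window holds the core of the antioxidant response element. RefSeq windows of 300 bases, from 250 before to 50 after the transcript start on the rat assembly GRCr8, were at hand for 8 members, not for Sod3 and Prdx6. The element was searched as TGACNNNGC on both strands, and capitals mark the match, which in these genes lies on the strand opposite to transcription. Windows are written from 5′ to 3′ on the gene's own strand: Sod2 at chr1:50050119-50050418 on the minus strand, Gpx2 at chr6:101229984-101230283 on the minus strand, and Prdx1 at chr5:135383656-135383955 on the plus strand.
Sod2: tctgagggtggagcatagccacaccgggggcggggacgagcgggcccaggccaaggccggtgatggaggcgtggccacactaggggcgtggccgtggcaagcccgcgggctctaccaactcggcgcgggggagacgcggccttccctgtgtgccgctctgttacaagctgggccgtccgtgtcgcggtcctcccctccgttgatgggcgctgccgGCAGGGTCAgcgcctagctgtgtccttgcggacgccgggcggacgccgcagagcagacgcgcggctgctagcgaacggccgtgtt
Gpx2: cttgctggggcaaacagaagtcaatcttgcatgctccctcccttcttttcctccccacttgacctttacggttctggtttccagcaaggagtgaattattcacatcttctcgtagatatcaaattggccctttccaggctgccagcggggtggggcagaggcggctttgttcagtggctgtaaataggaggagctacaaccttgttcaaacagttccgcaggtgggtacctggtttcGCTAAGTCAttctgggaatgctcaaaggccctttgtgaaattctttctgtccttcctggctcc
Prdx1: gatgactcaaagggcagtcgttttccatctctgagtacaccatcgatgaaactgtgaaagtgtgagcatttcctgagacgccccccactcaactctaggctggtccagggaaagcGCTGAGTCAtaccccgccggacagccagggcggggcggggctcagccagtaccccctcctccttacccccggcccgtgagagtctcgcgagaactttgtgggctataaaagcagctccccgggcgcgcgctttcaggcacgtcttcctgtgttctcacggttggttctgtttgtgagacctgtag
The matches begin 35 bases before the start of Sod2, 13 before that of Gpx2 and 135 before that of Prdx1. Of the 8 members with a window 3 had a match, as had 3602 of all 27457 genes (13.1%) with windows of this length. A match describes these letters and is no measure of binding.

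Compared per length of transcript, in the deposited FPKM, the members fell into a high and a low tier by their means over all libraries. The tiers did not part in each group. In the 21%-labelled arm at day 7 Gpx3 stood at 96.0 ± 7.62 beside Cat at 90.8 ± 12.5 FPKM (mean ± SD). Over the 30 libraries the mean was 314 FPKM for Sod1, 309 for Gpx1, 266 for Prdx1, 203 for Prdx6 and 199.7 for Gpx3. Cat stood at 96.6, Gpx2 at 71.6, Sod2 at 54.6 and Sod3 at 26.1 FPKM. Gpx4, the glutathione peroxidase that reduces lipid peroxides in membranes, stood apart at 0.186 FPKM. Its row held 0 to 15 counts per library and 161 in all, and 82.2% of its span lies under Sbno2, a gene of the other strand with 1046 to 2739 counts. RefSeq names 4 copies of Gpx4, none of which has a row under that name in the table, and the sources used here do not give how shared or overlapping reads were counted. Gpx4 passed the filter but its level is not read as expression, and its differences are not described further; it was called in none of the comparisons between arms.

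**Figure D1:**
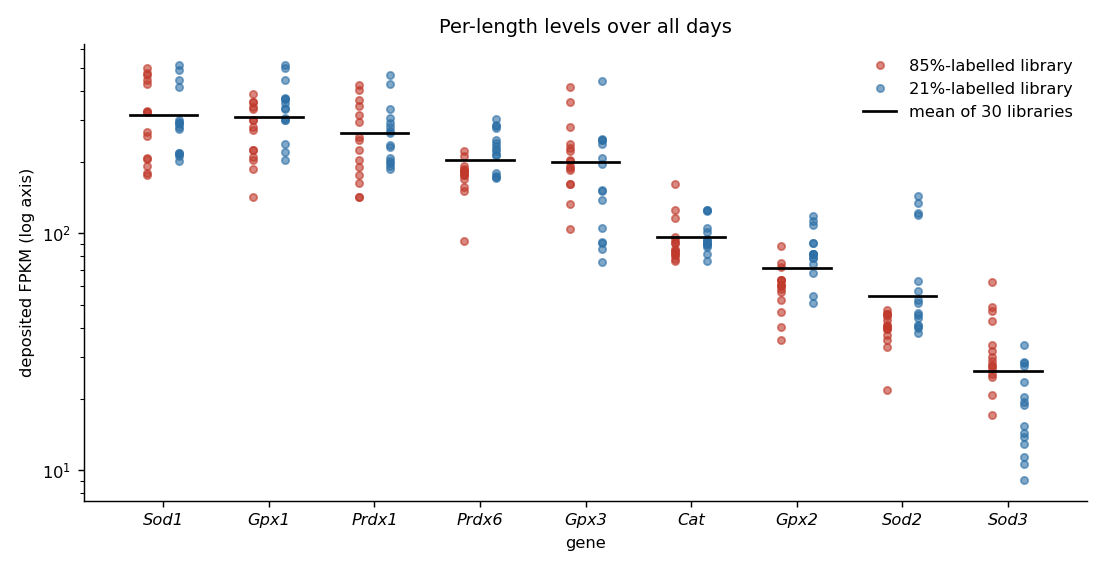
Deposited FPKM (log axis) of 9 members in the 15 libraries of each arm, all days together, with the mean of the 30 libraries as a bar. Sod1 and Gpx1 are highest on average, at 314 and 309 FPKM, and Sod3 lowest at 26.1; Gpx4, at 0.186, is not drawn.

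At day 14 Sod2 held a different place in the order of per-length levels in each arm, last with 85% and above Cat, Gpx2 and Sod3 with 21% on the label. In the 21%-labelled lungs Gpx1 led with 484 ± 37.3 FPKM (mean ± SD, n = 3), followed by Gpx3 at 313 ± 111, Prdx1 at 272 ± 38.4, Sod1 at 258 ± 33.9 and Prdx6 at 255 ± 25.6. Sod2 came next at 133 ± 12.2, ahead of Cat at 95.6 ± 8.80, Gpx2 at 87.3 ± 22.8 and Sod3 at 29.9 ± 3.35 FPKM. Neighbours from Gpx3 to Prdx6, and Cat and Gpx2, lay within the larger of their SDs. In the 85%-labelled lungs Gpx1 (207 ± 18.1), Gpx3 (207 ± 27.7), Sod1 (192 ± 16.6) and Prdx6 (178 ± 8.77 FPKM) followed each other within that spread, then Prdx1 at 149 ± 12.2 and Cat at 80.9 ± 3.20 FPKM. Gpx2 (55.6 ± 8.03), Sod3 (51.4 ± 10.2) and Sod2 (46.3 ± 1.06 FPKM) closed the order, again within the larger SD of each pair of neighbours.

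The study's main question is how the arms differ at each day. From here on levels are library-scaled counts (CPM, normalised by TMM). Differences are log2 values, with the 21%-labelled mean subtracted from the 85%-labelled mean, each ± its SE. Genes count as called, higher or lower, where edgeR's quasi-likelihood test gave an adjusted p below 0.05 together with an absolute difference of 0.5 or more. In these pieces of whole lung, fewer cells of a type and less RNA per cell cannot be told apart. At day 14, 6 of the 10 members were called, 5 lower and 1 higher, while 21.2% of all tested genes were called, 10.5% higher and 10.8% lower. The median difference of the 10 members, with Gpx4 included although its level is not read, was -0.57, beside 0.01 over all tested genes. The 3 lower members with the smallest adjusted p were Sod2, Gpx1 and Prdx1, and Sod3 was the member that was higher. Day 1 gave 5 calls, 3 higher and 2 lower, against a background of 41.4% of genes, 20.6% higher and 20.8% lower. Day 10 gave 1 call, Sod2, lower, where 2.93% of genes were called, 1.75% higher and 1.18% lower. No member was called by edgeR at days 3 and 7, where 0.393% and 0.0854% of genes were, nor by DESeq2, and 2 members had an unadjusted p under 0.05 at each of these days. With 6 of 10 members called at day 14 against 21.2% of genes, the share was above the background, while at day 1 it was close to it. The members were chosen with earlier results of these data known, so the day 14 share is no independent test. Leaving out single libraries gave 3 to 5 calls at day 14 and 3 to 8 at day 1.

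**Figure D2:**
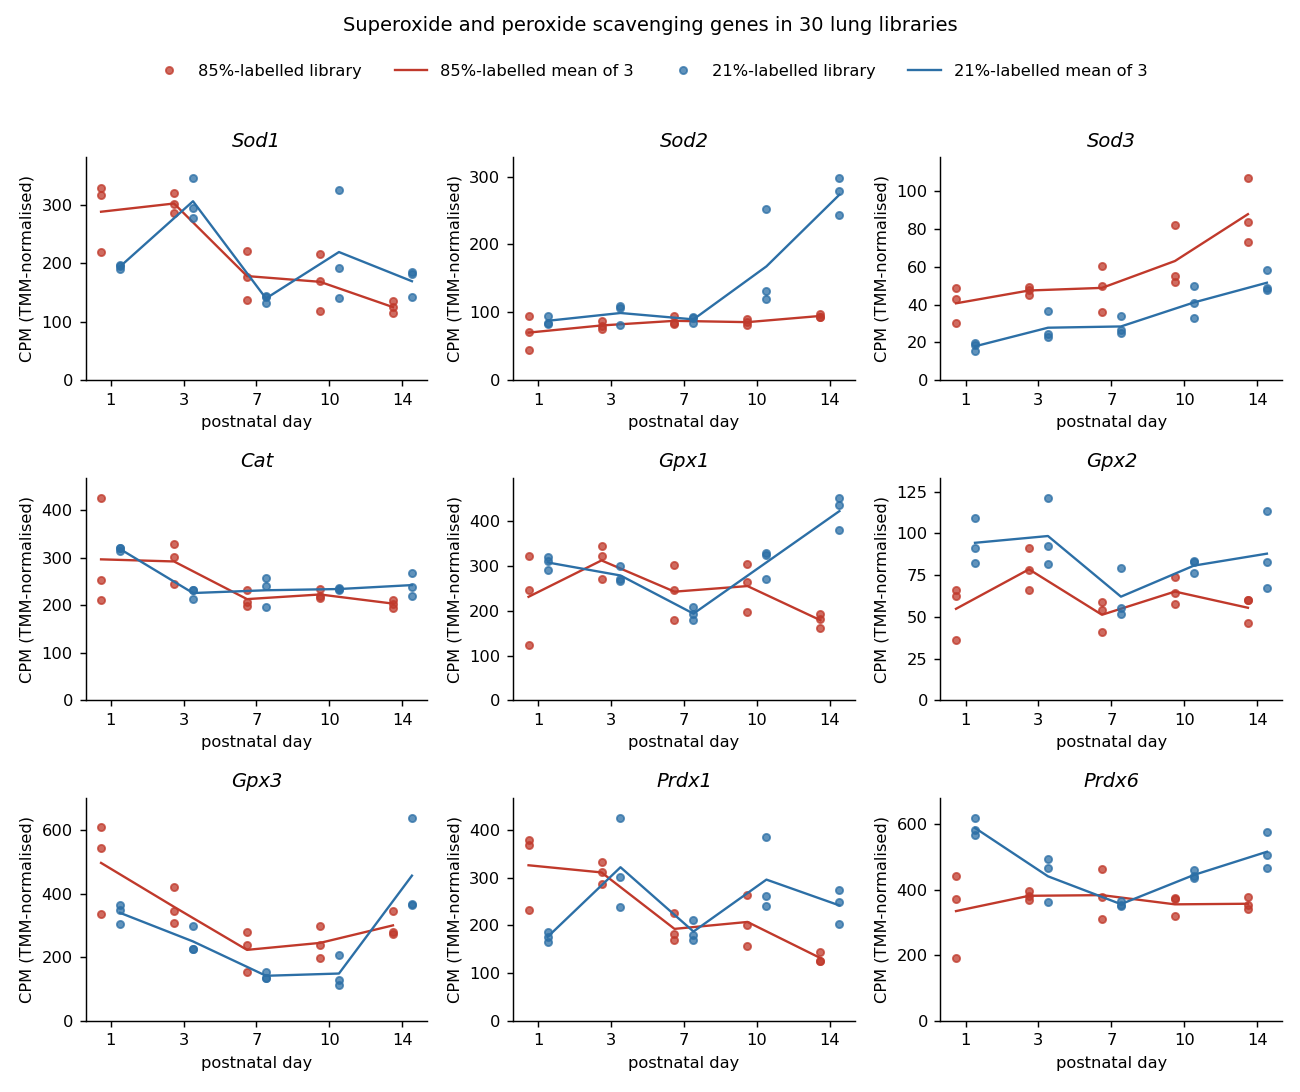
TMM-normalised CPM of 9 members in each library (points) by postnatal day, with lines through the means of 3 libraries per arm and day. Sod2 in the 21%-labelled arm climbs to 243 to 298 CPM at day 14 while the 85%-labelled libraries of that day stand at 93.3 to 97.1, and Sod3 is higher in the 85%-labelled libraries at each day.

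Sod2, the manganese dismutase of mitochondria (ENSRNOG00000019048, chromosome 1, 47914759 to 47921587, minus strand, in the coordinates of the deposited table, whose rat build the sources used here do not give), rose over the days in the 21%-labelled arm, while in the other no step between neighbouring days was called. At day 14 the 85%-labelled libraries stood at 97.1, 93.3 and 93.4 CPM and the 21%-labelled libraries at 278, 243 and 298 CPM. The groups did not overlap, and the lowest 21%-labelled library lay far above the highest 85%-labelled one. Sod2 was lower by 2.89-fold in the 85%-labelled lungs (log2 difference -1.53 ± 0.22 SE, adjusted p = 1.41e-05, edgeR's quasi-likelihood test), and it stayed called under each of the 14 alternatives tried for that day, leave-outs of single libraries included. At day 10 the values were 81.8, 85.1 and 89.4 CPM against 132, 119 and 252 CPM. The groups did not overlap there either, but one 21%-labelled library stood well above its 2 companions. The difference was -0.97 ± 0.22 with an adjusted p of 0.0124; without that library, replicate 3, it was -0.55 with an adjusted p of 0.163, without 85%-labelled replicate 1 it was -0.93 with 0.0660, and with the day 10 libraries fitted alone -0.95 with 0.319. That 85%-labelled replicate 1 is the library in which the summed skeletal muscle markers reached 1575 CPM, where the 21%-labelled libraries of day 10 had 3.34 to 12.4 CPM. The authors' deposited table gives Sod2 at day 10 an adjusted p of 0.0863 and a log2 fold change of 0.97, written as 21%-labelled over 85%-labelled.

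At days 1, 3 and 7 Sod2 was not called between the arms. Day 1 gave 45.1, 94.6 and 70.4 CPM in the 85%-labelled against 82.8, 84.4 and 95 CPM in the 21%-labelled arm, and the groups overlapped. Day 7 gave 95.1, 83.4 and 83.7 against 91.4, 93.2 and 84.0 CPM, a difference of -0.04 (95% interval -0.46 to 0.39). Within the 21%-labelled arm the steps from day 7 to 10 (log2 difference 0.90 ± 0.22, adjusted p = 0.0238) and from day 10 to 14 (0.70 ± 0.22, adjusted p = 0.0454) were both called as rises, although the day 10 and day 14 libraries overlapped, and day 14 exceeded day 1 by 3.13-fold (1.64 ± 0.22, adjusted p = 6.35e-06). Within the 85%-labelled arm no step was called and the F test over the 5 days gave an adjusted p of 0.432, which does not show a constant level. Its mean there was 70.0 CPM at day 1 and 94.6 CPM at day 14, a log2 difference of 0.43 without a call (95% interval 0.0093 to 0.855, adjusted p = 0.0901). Without 85%-labelled replicate 2 of day 1 that difference was 0.75 and called (adjusted p = 0.00639), whereas with the mitochondrial share as a covariate it was -0.27. That the arm difference changed between days was itself called for Sod2, with an adjusted p of 0.00332.

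Sod3, the extracellular dismutase (ENSRNOG00000003869, chromosome 14, 60958592 to 60964324, minus strand), went the other way: each 85%-labelled library was higher than each 21%-labelled library of its day, on all 5 days. At day 1 the values were 42.8, 30.3 and 49.0 CPM against 18.5, 15.7 and 19.6 CPM. At day 14 they were 83.6, 73.1 and 107 CPM against 58.5, 48.7 and 47.7 CPM. In these values, which take no account of the mitochondrial share, the gap between the arms was there from the earliest day while both arms climbed. The log2 difference was 1.18 ± 0.23 at day 1 (2.27-fold, adjusted p = 0.000707) and 0.77 ± 0.22 at day 14 (1.70-fold, adjusted p = 0.0127). At days 3, 7 and 10 it was 0.77, 0.78 and 0.62, each ± 0.22, without a call (adjusted p = 0.196, 0.139 and 0.145).

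Averaged over the 5 days Sod3 was higher by 0.82 ± 0.10 (adjusted p = 3.54e-06), and Sod2 lower by 0.63, a difference of -0.63 ± 0.10 (adjusted p = 6.4e-05). These were the 2 members called in the averaged comparison, which called 13.3% of all genes, 6.32% higher and 6.99% lower. Gpx1 (-0.29, adjusted p = 0.0320), Gpx2 (-0.47, 0.00151), Gpx3 (0.37, 0.0186) and Prdx6 (-0.35, 0.00401) passed on the adjusted p but not on size. With the mitochondrial share as a covariate Sod2 averaged -0.49 with an adjusted p of 0.000224, just under the size needed for a call. The F test for a change of the arm difference between days was not called for Sod3 (adjusted p = 0.553), which does not show that the difference was constant. Single libraries bore on the Sod3 calls: without 85%-labelled replicate 3 the day 14 difference was 0.58 with an adjusted p of 0.0912, without 21%-labelled replicate 2 or 3 it was 0.70 (adjusted p = 0.0514) or 0.71 (0.0550), and without 85%-labelled replicate 3 of day 7 the day 7 difference was 0.99 and called (adjusted p = 0.0264). With the mitochondrial share as a covariate the day 1 difference was 0.65 with an adjusted p of 0.344. It was 0.77 without the libraries above 6% mitochondrial counts, which keeps only replicate 2 of the 85%-labelled day 1 group. In the authors' deposited table Sod3 has adjusted p-values of 0.0431 at day 3 and 0.0410 at day 7, with log2 fold changes of -0.77 and -0.78 (21%-labelled over 85%-labelled). Over time Sod3 rose in both arms, day 14 exceeding day 1 by 2.88-fold in the 21%-labelled arm (1.53 ± 0.23, adjusted p = 2.58e-05) and by 2.16-fold in the 85%-labelled arm (1.11 ± 0.22, adjusted p = 0.000303).

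Sod1, the cytosolic copper and zinc dismutase (ENSRNOG00000002115, chromosome 11, 30363280 to 30368862, plus strand), changed sign between the ends of the course. On day 1 its 85%-labelled libraries held 329, 219 and 316 CPM and its 21%-labelled libraries 194, 191 and 197 CPM. At day 14 they held 114, 125 and 136 CPM against 185, 141 and 181 CPM. The groups did not overlap on either day, and the arm with the higher libraries at day 1 had the lower ones at day 14. The day 1 difference of 0.57 ± 0.23 was called (adjusted p = 0.0463), but not with RLE scaling (0.0540), without a filter on low counts (0.0703), or without any one of the libraries of that day other than 85%-labelled replicate 2 (adjusted p = 0.10 to 0.162), and it was -0.014 with the mitochondrial share as a covariate. The day 14 difference of -0.44 ± 0.23 was not called (95% interval -0.89 to 0.02, adjusted p = 0.177), whereas the authors' deposited table gives it an adjusted p of 0.0102. The change of the arm difference between days had an adjusted p of 0.0493, and this call was lost under 29 of 36 alternatives, RLE scaling (0.0559) and no filter (0.0672) among them. In time, Sod1 rose from day 1 to 3 in the 21%-labelled arm (0.66 ± 0.23, adjusted p = 0.0378) and fell from day 3 to 7 in both arms, by 1.13 in the 21%-labelled (adjusted p = 0.00234) and by 0.76 in the 85%-labelled arm (adjusted p = 0.0383) on the log2 scale.

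Cat, the peroxisomal enzyme that splits hydrogen peroxide into water and oxygen (ENSRNOG00000008364, chromosome 3, 93379874 to 93412058, minus strand), was called between the arms on no day. At day 14 its libraries stood at 212, 195 and 204 CPM in the 85%-labelled and at 268, 219.9 and 239 CPM in the 21%-labelled arm. The groups lay side by side without overlap, and the difference was -0.25 (95% interval -0.58 to 0.07, adjusted p = 0.287). At day 3 they stood at 302, 244 and 329.6 CPM against 232, 231 and 214 CPM, with the 85%-labelled libraries the higher ones and an interval of 0.05 to 0.70 (adjusted p = 0.613). The 85%-labelled libraries of day 1 spread from 211 to 425 CPM while the 21%-labelled ones kept to 315 to 321 CPM. Averaged over days the difference was -0.04, with a 95% interval of -0.18 to 0.11. From day 1 to 14 Cat fell by 0.54 on the log2 scale in the 85%-labelled arm (± 0.17 SE, adjusted p = 0.00768), but by 0.18 (a difference of -0.18, adjusted p = 0.231) without replicate 3 of day 1, the library at 425 CPM. This call was lost under 6 of 12 alternatives. Among these, RLE scaling (-0.49, adjusted p = 0.0126), DESeq2 (-0.49, 0.00820) and leaving out 85%-labelled replicate 2 of day 14 (-0.48, 0.0401) missed only the size threshold.

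**Figure D3:**
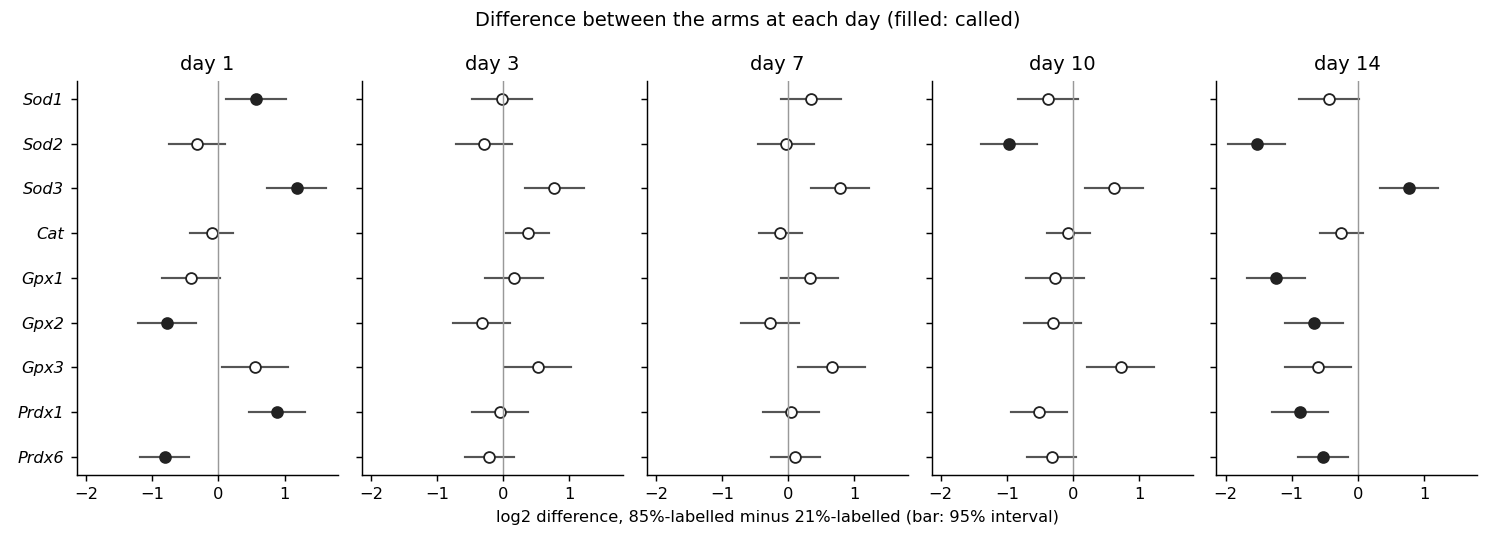
Log2 difference between the arms (85%-labelled minus 21%-labelled) of 9 members at each of the 5 days, with 95% intervals; filled points are the called ones. Sod3 lies above 0 at each day, Sod2 departs at days 10 (-0.97) and 14 (-1.53), and Sod1 and Prdx1 lie above 0 at day 1 and below it at day 14.

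Among the glutathione peroxidases, Gpx1, the widespread cytosolic and mitochondrial form (ENSRNOG00000048812, chromosome 8, 117117430 to 117118522, plus strand), parted between the arms at day 14. The 85%-labelled libraries stood at 193, 181 and 162 CPM and the 21%-labelled libraries at 434, 380.3 and 451 CPM. Each 21%-labelled library lay above each 85%-labelled one, and Gpx1 was lower by 2.36-fold in the 85%-labelled lungs (-1.24 ± 0.22, adjusted p = 0.000228). The call held under each of the 14 alternatives tried, with differences from -1.33 to -1.19. At day 10 the values were 198, 303 and 263 CPM against 328, 325 and 269.6 CPM. There the groups overlapped, with no call (-0.27, adjusted p = 0.642). The 85%-labelled libraries of day 1 ran from 124 to 322 CPM and the 21%-labelled ones from 291 to 320.2 CPM, again without a call (-0.41, adjusted p = 0.126), except without 85%-labelled replicate 2, where the difference was -0.76 (adjusted p = 0.00680). The change of the arm difference between days was called for Gpx1 (adjusted p = 0.00403).

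Gpx2, the form known from epithelia and an NRF2 target (ENSRNOG00000055672, chromosome 6, 99839960 to 99843245, minus strand), was lower in the 85%-labelled mean on all 5 days and called on days 1 and 14. Day 1 libraries stood at 36.1, 62.5 and 66.0 CPM against 109.5, 82.2 and 91.4 CPM. At day 14 they stood at 60.0, 46.2 and 60.3 CPM against 114, 67.4 and 82.6 CPM. The groups did not overlap on either day, nor at day 10, while they did at days 3 and 7. The difference was -0.78 ± 0.22 at day 1 (adjusted p = 0.00702) and -0.66 ± 0.22 at day 14 (adjusted p = 0.0311). The day 1 call was lost without 85%-labelled replicate 1, where the difference was -0.55 (adjusted p = 0.0612), with the day 1 libraries fitted alone (0.0512) and with the replicate block added to that fit (0.0654). The day 1 difference was -0.28 (adjusted p = 0.708) with the mitochondrial share as a covariate. It was -0.58 without the libraries above 6% mitochondrial counts, which keeps only replicate 2 of the 85%-labelled day 1 group. The day 14 call was lost without 21%-labelled replicate 1 (-0.42, adjusted p = 0.234), without 21%-labelled replicate 3 (adjusted p = 0.0509) and without 85%-labelled replicate 2 (adjusted p = 0.124). Averaged over days the difference was -0.47 ± 0.10 with an adjusted p of 0.00151, just under the size needed for a call.

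Gpx3, the secreted plasma form (ENSRNOG00000052564, chromosome 10, 40247436 to 40255422, plus strand), traced a trough. In the 21%-labelled arm it stood at 366, 304 and 349.5 CPM at day 1, at 113, 206 and 127 CPM at day 10, and at 365, 637 and 369 CPM at day 14. Its level at day 10 was below that of the days at both ends, and one day 14 library stood far above the other two. The fall from day 3 to 7 (-0.82 ± 0.26, adjusted p = 0.0163) and the 3.07-fold rise from day 10 to 14 (1.62 ± 0.26, adjusted p = 0.000341) were called. In the 85%-labelled arm the libraries stood at 611, 337 and 544 CPM at day 1, at 197, 299.6 and 239 CPM at day 10 and at 347, 275 and 279.6 CPM at day 14, so that the upturn at day 14 was smaller and not called. Between the arms Gpx3 was called on no single day: the difference was 0.55, 0.52, 0.66 and 0.72 at days 1, 3, 7 and 10 and -0.61 at day 14 (adjusted p = 0.0786, 0.670, 0.226, 0.137 and 0.0854), although the authors' deposited table gives day 14 an adjusted p of 0.0166. That the difference changed between days was called (adjusted p = 0.0246), though not without 21%-labelled replicate 2 of day 14 (0.0945), the library at 637 CPM, nor without 85%-labelled replicate 2 (0.0640) or replicate 3 (0.0624) of that day. Without 21%-labelled replicate 2 of day 10 the difference there was 1.03 and called (adjusted p = 0.0358).

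Prdx1, a cytosolic peroxiredoxin and NRF2 target (ENSRNOG00000017194, chromosome 5, 135536413 to 135551990, plus strand), was called in opposite directions at the ends of the course. On day 1 its 85%-labelled libraries held 378, 232 and 368 CPM and the 21%-labelled libraries 186, 165 and 176 CPM. At day 14 they held 125, 144 and 126 CPM against 274, 202 and 249.9 CPM. There was no overlap on either day, with the 85%-labelled libraries above at day 1 and below at day 14. The difference was 0.89 ± 0.22 at day 1 (adjusted p = 0.00239) and -0.88 ± 0.22 at day 14 (adjusted p = 0.00379), and its change between days had an adjusted p of 0.00147. The day 14 call held under each of the 14 alternatives tried, while the day 1 difference was 0.21 (adjusted p = 0.742) with the mitochondrial share as a covariate and 0.41 (adjusted p = 0.341) without the libraries above 6% mitochondrial counts. In time Prdx1 rose from day 1 to 3 in the 21%-labelled arm (0.87 ± 0.22, adjusted p = 0.00748) and fell from day 3 to 7 by 0.78 there (adjusted p = 0.00822) and by 0.69 in the 85%-labelled arm (adjusted p = 0.0407) on the log2 scale. RefSeq names 8 copies of Prdx1; the copy Prdx1l1 has a row of its own with 402 to 1026 counts, so reads may be split between them and the Prdx1 level is uncertain to that extent.

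Prdx6, the peroxiredoxin with a phospholipase activity that is abundant in lung (ENSRNOG00000002896, chromosome 13, 79077033 to 79088127, minus strand), was called lower at day 1 and at day 14. Day 1 libraries stood at 190.4, 442 and 373 CPM in the 85%-labelled against 618, 582 and 567 CPM in the 21%-labelled arm. At day 14 they stood at 341, 355 and 377 CPM against 576, 465 and 507 CPM. The groups did not overlap at these days or at day 10, while at days 3 and 7 they did. The difference was -0.81 ± 0.19 at day 1 (adjusted p = 0.00207) and -0.53 ± 0.19 at day 14 (adjusted p = 0.0437). At day 1 the difference was -0.13 (adjusted p = 0.790) with the mitochondrial share as a covariate. It was -0.41 without the libraries above 6% mitochondrial counts, which keeps only replicate 2 of the 85%-labelled day 1 group. The day 1 call was also lost with the day 1 libraries fitted alone (adjusted p = 0.0699), and with the replicate block added to that fit (0.0550). The day 14 call is a narrow one, lost without a filter on low counts (adjusted p = 0.0591) and without any one of the libraries of the day other than 21%-labelled replicate 2 (adjusted p = 0.0715 to 0.177). RefSeq names 3 copies of Prdx6, 2 of Gpx2 and 1 of Sod2, none with a row under that name in the table.

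The 5 calls at day 1 were Sod1, Sod3 and Prdx1, higher, and Gpx2 and Prdx6, lower. With the mitochondrial share as a covariate no member was called, and over all genes the calls came to 27 in place of 7278. Leaving out the 4 libraries above 6% mitochondrial counts kept only replicate 2 of the 85%-labelled day 1 group. Calls at day 1 are therefore not given for that setting. Without 85%-labelled replicate 1, whose mitochondrial share was 19.1%, 3 members were called, and without 85%-labelled replicate 2, at 5.31%, 8 were. Mitochondrial shares also parted the arms at day 14, with each 85%-labelled library (2.69% to 2.77%) below each 21%-labelled one (3.33% to 3.77%). Neither the covariate nor the 6% limit moved the count of 6 calls of that day. No day 14 library lies above 6%, so that limit removed none of them. The part of the share in the day 14 differences was not tested with the libraries of that day alone. Leaving out 21%-labelled replicate 3 of day 14 left 3 calls, Sod2, Gpx1 and Prdx1.

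Cell type markers moved with the day 14 difference too. Their counts are to be set beside the shares over all tested genes, 10.5% higher and 10.8% lower at day 14 and 20.6% and 20.8% at day 1. The summed macrophage markers were 316 to 352 CPM in the 85%-labelled and 659 to 973 CPM in the 21%-labelled libraries, with 7 of 8 markers called lower in the 85%-labelled lungs, and type 2 cell markers summed to 9036 to 10702 against 18461 to 20964 CPM, with 5 of 6 called lower. The 4 endothelial markers were called higher in the 85%-labelled lungs, with sums of 2216 to 2498 against 808 to 1066 CPM, as were the 4 heart muscle markers, with sums of 51.0 to 519.7 against 0.122 to 1.19 CPM, none of these 4 having counts in each of the 21%-labelled libraries. Of 6 smooth muscle markers 4 were called lower (median difference -0.88), as were 2 of 3 mesothelial markers (-1.30). At day 1 most calls over all genes were lost with the mitochondrial share as a covariate, a setting under which the markers were not examined. On that day the 3 tested squamous epithelial markers were called lower (median -3.10), with 2 of 3 mesothelial and 2 of 6 type 1 cell markers. Called higher were 2 of 5 neutrophil markers. Type 2 cell markers at day 1 gave 2 calls in each direction among 6, and macrophage markers 2 in each among 8. The part of these cell types in the members' differences, at either day, was not tested.

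The genes that serve the scavenging enzymes were counted by role from lists of partner genes, and each count is to be set beside the shares over all tested genes. Those shares were 10.5% higher and 10.8% lower at day 14, 1.75% and 1.18% at day 10, and 20.6% and 20.8% at day 1. Of 6 tested peroxiredoxins and glutathione peroxidases outside the set, 3 were called lower at day 14 and none higher. Prdx5, a peroxiredoxin of mitochondria and peroxisomes, stood at 76.2 ± 2.56 CPM in the 85%-labelled against 245 ± 15.4 CPM in the 21%-labelled lungs (-1.69, adjusted p = 4.52e-06). Prdx3, the peroxiredoxin of the mitochondrial matrix, stood at 40.5 ± 3.62 against 86.4 ± 4.0 CPM (-1.09, adjusted p = 1.51e-06). Gpx8, a glutathione peroxidase of the endoplasmic reticulum, was also lower (-0.88, adjusted p = 0.0159). Of these 6, 3 were called higher at day 1, Prdx5, Gpx7 and Gpx8, with differences of 0.81 to 1.29. That is the day whose calls over all genes went from 7278 to 27 with the mitochondrial share as a covariate.

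**Figure D4:**
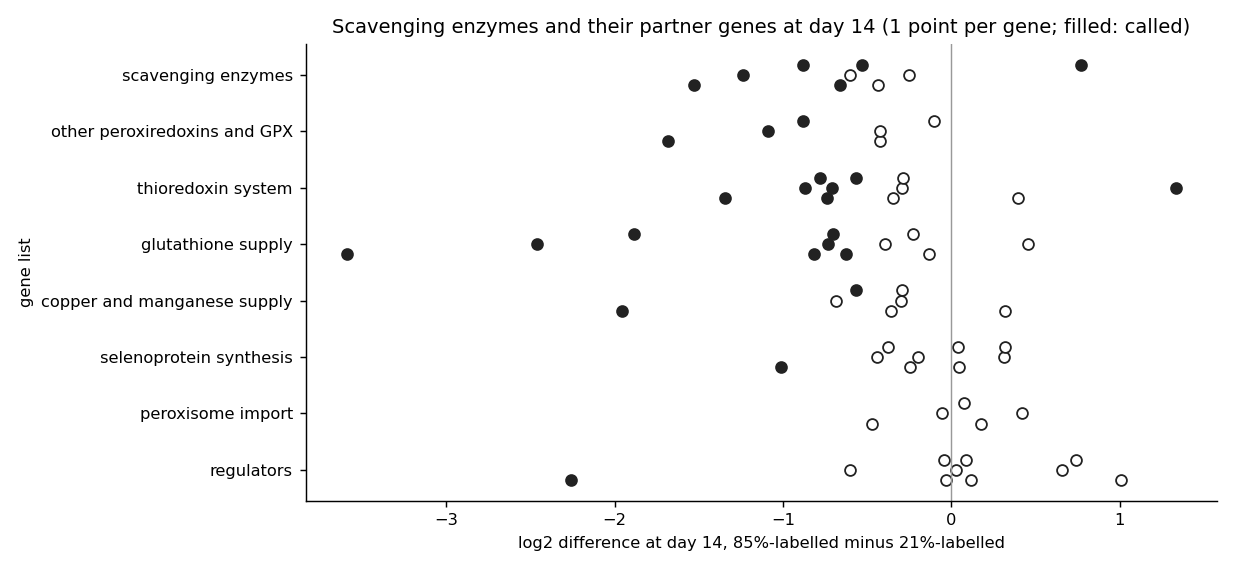
Log2 difference at day 14 (85%-labelled minus 21%-labelled) of 9 scavenging enzymes and of the tested genes of 7 partner lists, 1 point per gene, filled where called. In the glutathione supply list 7 of 11 genes are called lower and in the list of the thioredoxin system and glutaredoxins 6 of 11, with Txnip, at 1.33, the partner gene called higher.

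The list of the thioredoxin system, which recharges peroxiredoxins, also holds glutaredoxins, which work with glutathione. Of its 11 tested genes 6 were called lower at day 14 and 1 higher. The glutaredoxins Glrx, Glrx2 and Glrx3 made up 3 of the 6, and the thioredoxin gene Txn1 and the reductases Txnrd1 and Txnrd2 the other 3. Glrx3 stood at 46.2 ± 2.23 against 117 ± 12.9 CPM (-1.34, adjusted p = 1.7e-07). Txnrd1, the cytosolic thioredoxin reductase, was lower by 0.71 (a difference of -0.71, adjusted p = 0.000667) and Glrx by 0.74 (a difference of -0.74, adjusted p = 0.00168). The differences of Glrx2 (-0.78, adjusted p = 0.00332), Txn1 (-0.87, adjusted p = 0.0175) and Txnrd2, the mitochondrial reductase (-0.56, adjusted p = 0.0260), were of like size. Txnip, which binds and inhibits thioredoxin, was the gene called higher, at 825 ± 65.3 against 328 ± 45.0 CPM (1.33, adjusted p = 1.13e-05). The same list held 3 calls at day 10: Txnip higher (0.66), and Txnrd1 (-0.60) and Glrx3 (-0.66) lower. At day 1 it held 3 genes called higher and 2 lower.

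Of 11 tested genes for glutathione supply, which glutathione peroxidases draw on, 7 were called lower at day 14 and none higher, with a list median of -0.70. Slc7a11, the cystine importer, stood at 0.521 ± 0.164 against 6.33 ± 1.99 CPM (-3.59, adjusted p = 8.56e-05). Ggt1, which cleaves extracellular glutathione, and Slc3a2, the partner chain of Slc7a11, were lower with differences of -2.46 (adjusted p = 0.000622) and -0.73 (adjusted p = 0.000694). At day 10 Gclc, the catalytic subunit of the rate-limiting ligase (-1.07, adjusted p = 0.00621), Slc3a2 (-0.69, adjusted p = 0.00930) and Chac1, which degrades glutathione (-1.51, adjusted p = 0.0360), were the 3 called, all lower. At day 1, 5 of the 11 were called lower and none higher.

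For the metal cofactors of the dismutases, 2 of 7 tested genes were called at day 14, both lower: Slc39a14, a manganese and zinc importer (18.8 ± 1.11 against 73.0 ± 20.3 CPM, -1.96, adjusted p = 6.95e-07), and Ccs, the chaperone that loads copper into Sod1 (-0.57, adjusted p = 0.0304). A share of 2 in 7 is near the 21.2% of all genes called that day, and at day 1 the list had 3 genes called higher and 2 lower. Of 9 genes of selenoprotein synthesis 1 was called, Lrp8, a receptor for selenoprotein P (-1.01, adjusted p = 0.0225), against 3 higher and 1 lower at day 1. Of 5 tested genes of peroxisomal import edgeR called none at day 14, and 1, lower, at day 1. The list of regulators, which holds NRF2 with its partners beside FOXO and NF-kB factors, had most of its calls at day 1, when 6 of 10 were called lower and none higher, with a list median of -1.10. The mean over the 5 days, which includes day 1, had 5 of 10 called lower (median -0.52), where 6.99% of all genes were. Most day 1 calls over all genes were lost with the mitochondrial share as a covariate. Results of this list are not given for that setting. After day 1 the median of the 10 regulators ran from -0.38 on day 7 to 0.06 on day 14. Of these 10, 1 was called at days 10 and 14, Maff, a small Maf partner of NRF2, which stood at 14.2 ± 2.69 against 68.2 ± 11.8 CPM at day 14 (-2.26, adjusted p = 3.34e-07). Nfe2l2, which encodes NRF2, was called at day 1 (-0.91, adjusted p = 0.00919) and not at day 14.

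Over the 5 days the course itself was called for 7 members in the 21%-labelled arm (all but Cat, Gpx2 and Gpx4), where 56.3% of all genes were, and for 6 in the 85%-labelled arm (Sod1, Sod3, Cat, Gpx1, Gpx3 and Prdx1), where 58.9% were. The call of Gpx1 in the 85%-labelled arm was lost under 11 of 21 alternatives. Step by step, the 21%-labelled arm had 3 called members from day 1 to 3 (24.4% of genes), 4 from day 3 to 7 (33.5%), 1 from day 7 to 10 (2.88%) and 2 from day 10 to 14 (6.64%). Those not yet described were Sod3, which rose from day 1 to 3 (0.63 ± 0.23, adjusted p = 0.0402), and Gpx2, which fell from day 3 to 7 (-0.66 ± 0.22, adjusted p = 0.0229). In the 85%-labelled arm edgeR called 2 members from day 3 to 7 (11.1% of genes) and none on the other steps, where 0.211%, 0.0114% and 6.21% of genes were called and 1, 0 and 3 members had an unadjusted p under 0.05. Between day 1 and 14 Sod2 and Sod3 rose in the 21%-labelled arm, where 19.1% of genes were called, 9.04% higher and 10.1% lower. In the 85%-labelled arm, with 51.1% called, 25.1% higher and 26% lower, Sod3 rose and Sod1, Cat, Gpx3 and Prdx1 fell, Sod1 by 2.31-fold (-1.21 ± 0.23, adjusted p = 0.000221) and Prdx1 by 2.48-fold (-1.31 ± 0.22, adjusted p = 5.86e-05). With the mitochondrial share as a covariate the 3 calls in that arm were Sod3, higher, and Gpx1 and Prdx6, lower. Leaving out the libraries with over 6% mitochondrial counts kept only replicate 2 of its day 1 group, so calls are not given for that setting. Leaving out 85%-labelled replicate 3 of day 1 or replicate 2 of day 14 also left 3 calls. The change of the arm difference between days was called for 5 members, Sod1, Sod2, Gpx1, Gpx3 and Prdx1, where 37.6% of genes were called, and for 3 without 85%-labelled replicate 2 or replicate 3 of day 14.

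The genes whose pattern was most like that of each member were ranked by the correlation of log2 CPM over the 30 libraries, which share 10 group levels, so that r describes likeness and carries no test. Sod1 was most like the ribosomal protein gene Rpl36a and Hint2, each with r of 0.97, and Prdx1 like Nubp1, Psmb5 and Cisd1 with r of 0.98. Sod2 was most like Fos, an immediate early gene (r = 0.93), Dglucy (0.93) and Jam3 (0.92), and Sod3 like Akr1c15 (0.81) and the matrix genes Sparc (0.79) and Mfap5 (0.77). Gpx1 was nearest to Ap1m2 (0.88), Ldha and Lamp1 (both 0.87), Gpx2 to Gsr, the glutathione reductase gene (0.80), Sdf2l1 (0.76) and Tkt (0.75), and Gpx3 to Ctsh, Chi3l1 (both 0.83) and St6galnac2 (0.79). Prdx6 was nearest to Myh14 and Fuca2 (both 0.90) and Cldn18 (0.88), while Cat had no gene above 0.73, the value of Dram2.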

How the data were processed

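Lung RNA was measured by mRNA sequencing in 30 libraries, from RNeasy-purified RNA and a SMARTer kit, per the labels' protocols. The deposited table holds whole-number counts per gene and FPKM, which the authors scaled by gene length and library size. The sources used here name no aligner, counter or rat build; GRCm38 and mm10, both mouse builds, appear in the submitters' processing notes, while the deposited gene IDs are those of rat. Log2 fold changes and p-values of the authors' deposited table, whose test the sources do not name, are quoted only where said. Groups follow the treatment and time labels.

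The members and gene lists were chosen with earlier results of these data known. Counts were fitted with edgeR 4.0.16 in R 4.3.3 (robust quasi-likelihood, TMM, filterByExpr) as 10 group means over the 30 libraries with 20 residual degrees of freedom. Benjamini-Hochberg adjustment covered the 17571 genes tested. F tests were called on the adjusted p alone. The SE is the absolute difference divided by the square root of F, an approximation. The 95% intervals rest on it with a normal quantile, which makes them somewhat narrower than the quasi-likelihood test implies. Genes named beyond the members are up to 4 called genes with the smallest p of each partner list at days 10 and 14, the 3 genes whose log2 CPM was most like each member's (mean of at least 3, prior count 2), and the label check genes; partner genes named at day 1, Nfe2l2, Txn1, Txnrd2 and Glrx2 were chosen after their values were seen. Likeness is not printed for Gpx4, nor beyond the nearest gene for Cat. Some genes that this rule names are not reported here. Alternatives were DESeq2 1.42.0, RLE scaling, no filter, the mitochondrial share as a covariate, no libraries above 6% mitochondrial counts, the replicate block, single days alone and leaving out each library. The steps were tested on simulated counts. Of 30 pairs of libraries within groups none agreed within counting noise (lowest chi-square per degree of freedom 7.10).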

Additional observations from a re-analysis of the deposited data

Results flagged for a closer look

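For 5 members edgeR's F test of the interaction of arm and day, adjusted over 17571 genes, passed its threshold. The adjusted p was 0.00147 for Prdx1, 0.00332 for Sod2, 0.00403 for Gpx1, 0.0246 for Gpx3 and 0.0493 for Sod1. Prdx1 went from a log2 difference of 0.89 at day 1 to -0.88 at day 14 and Sod1 from 0.57 to -0.44, while Gpx3 went from 0.72 at day 10 to -0.61 at day 14. Sod2 went from -0.04 at day 7 to -1.53 at day 14, and Gpx1 from 0.33 to -1.24. The pass of Sod1 was lost under 29 of 36 alternatives, and that of Gpx3 without 21%-labelled replicate 2 (adjusted p = 0.0945), 85%-labelled replicate 2 (0.0640) or 85%-labelled replicate 3 (0.0624) of day 14. With the mitochondrial share as a covariate the day 1 difference was 0.21 for Prdx1 and -0.014 for Sod1. Among all tested genes 37.6% passed the same test.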

How the results depend on the processing

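Of the members' results that were compared under an alternative other than leaving out 1 library, 297 kept their direction and side of the threshold, 39 lost a call, 11 gained one and 11 changed sign. With the mitochondrial share as a covariate the count of called members was 0 at day 1 in place of 5, 1 for the mean over days in place of 2, and 3 from day 1 to 14 in the 85%-labelled arm in place of 5. Leaving out the libraries above 6% mitochondrial counts kept only replicate 2 of the 85%-labelled day 1 group. Counts of called members that involve that group are not given for this setting. With the libraries of a day fitted alone the count was 3 at day 1 and 0 in place of 1 at day 10, and with the replicate block added 2 and 0. With the covariate the day 1 difference changed sign for Sod1 (-0.014), Sod2 (0.37), Gpx1 (0.23) and Gpx3 (-0.16), and the change from day 1 to 14 in the 85%-labelled arm for Sod2 (-0.27) and Prdx6 (-0.60). Without the libraries above 6% it did so for Sod2 (0.12), Gpx1 (0.076) and Gpx3 (-0.0032) at day 1 and for Sod2 (-0.0014) and Prdx6 (-0.31) from day 1 to 14; leaving out single libraries, the last ran from -0.18 (without 85%-labelled replicate 1 of day 1) to 0.38. None of these values was called at the main setting, apart from Sod1 at day 1, and the cause was not tested. Leaving out single libraries, the count of called members ran from 3 to 8 at day 1, 0 to 0 at day 3, 0 to 1 at day 7, 0 to 2 at day 10, 3 to 5 at day 14, 2 to 3 for the mean, 3 to 6 for the change of the difference between days, 6 to 8 and 5 to 6 for any change in the 21%-labelled and 85%-labelled arm, and 2 to 2 and 3 to 6 from day 1 to 14 in these arms. Replicate numbers were not taken as pairs, since only 8 of 15 same-number pairs had deviations correlated above 0.1 (-0.258 to 0.475), with 9 of 15 best matched by their own number. At day 3 all 3 pairs were above 0.1 (0.107 to 0.303), and with the block, as without it, no member was called there. At day 7 the same-number pairs had 0.0997 to 0.133, while other numbers gave at most -0.0392. At days 3 and 7 each library was thus best matched by its own number. Whether the numbers mark pairs or batches on the early days was not tested. With the replicate block over all 30 libraries the adjusted p of Sod1 was 0.0504 at day 1 and 0.0624 for the change between days. Gpx4 had 161 counts in all and is not read.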
